A study of Mus musculus with 4 samples.

Results

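Olfactory receptor genes encode the odorant receptors of the nose, which are G protein-coupled receptors and form the largest gene family of mammals. They lie in clusters on many chromosomes. Each olfactory sensory neuron transcribes a single allele of a single receptor gene, while the other receptor genes are packed in heterochromatin, and in most other tissues the clusters are silent. The clusters are not made of receptor genes alone. On the short arm of chromosome 11 the β-globin genes sit among olfactory receptor genes, and on the short arm of chromosome 6 an olfactory receptor cluster lies beside the major histocompatibility complex. HEK293 is an established human cell line from embryonic kidney that is widely used to express olfactory receptors from plasmids.

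The peaks described here were those of the TRAFTAC dataset that had their summit in 6 intervals of GRCh38, chosen by position alone. The intervals are named A to F below. Cluster A spanned 4300000 to 6250000 on chromosome 11, cluster B 56300000 to 56900000 on chromosome 11 and cluster C 123700000 to 124700000 on chromosome 11. Cluster D spanned 247400000 to 248700000 on chromosome 1, cluster E 158300000 to 159100000 on chromosome 1 and cluster F 29000000 to 29600000 on chromosome 6. Together they covered 6.25 Mb and held 30 of the 48751 peaks of the list. They are 0.206% of the sequence of chromosomes 1 to 22 and X, each measured up to its last peak, and held 0.0615% of the peaks. Centromeres and assembly gaps were not taken out of these chromosomes, here or in the comparisons below. Each was compared with the 2 Mb on each side of it. These flanks were set by distance alone, and whether they hold olfactory receptor genes as well was not examined. The higher-coordinate flank of cluster D was cut short by the end of chromosome 1, so that the flanks covered 22.2 Mb in all and held 655 peaks.

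ATAC-seq marks accessible DNA by the insertion of Tn5 transposase, and a peak is a stretch where more fragments were found than in the surrounding sequence. All 4 libraries came from HEK293 cells transfected for 6 h with 1 μg/mL of a plasmid for a HaloTag7-dCas9 fusion protein and with 25 nM TRAFTAC, a hybrid of a guide RNA and a double-stranded DNA that carries a TF motif. In 2 libraries the TRAFTAC was directed against NFkB and in 2 it was scrambled, and all 4 then received 5 ng/mL of TNF-α for 19 h. HP14, a PROTAC that binds the HaloTag, was added with it at 25 μM. DNase was given at 200 units/ml shortly before harvest. The deposited list was called on the 4 libraries merged and holds no value of a single library. The TRAFTACs could therefore not be compared, there was no replicate error, and the intervals below cover counting error only. The organism given in the labels is Mus musculus, but HEK293 is a human line and the peak positions follow GRCh38.

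Peaks were sparse in the olfactory receptor clusters. Over the 6 clusters there were 4.80 peaks per Mb (95% Poisson interval 3.24 to 6.85). The flanks had 29.4 peaks per Mb (27.2 to 31.8), and chromosomes 1 to 22 and X had 16.0 (15.8 to 16.1). At the density of the flanks 184 peaks would have been counted in place of 30. The clusters were thus 6.13-fold sparser than their flanks (95% interval 4.26 to 9.17; p = 3.24e-38, two-sided exact conditional binomial test) and 3.32-fold sparser than the chromosomes as a whole. The combined flanks were richer in peaks than the chromosomes as a whole, so that the comparison with them gave the larger difference. This did not hold for the flanks of every cluster. Those of clusters B and D had 10.0 and 10.7 peaks per Mb, below the chromosomes as a whole, and those of A, C, E and F were above. The flanks of cluster F had the most, 64.0 per Mb, and held 256 of the 655 flank peaks. With all edges moved inwards by 100 kb the ratio of the densities fell from 0.163 to 0.108. Neighbouring peaks are not independent, which makes these p-values, and those of the single clusters below, too small. The intervals of the densities and of their ratios are too narrow for the same reason.

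All 6 clusters had fewer peaks per Mb than both flanks combined, and all 6 were below the density of the chromosomes as a whole. The test was run on each cluster, with Benjamini-Hochberg adjustment over the 6, and all 6 differences passed at an adjusted p below 0.05. The range between clusters was wide, from no peak in cluster B to 10.0 peaks per Mb in clusters C and F.

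**Figure D1:**
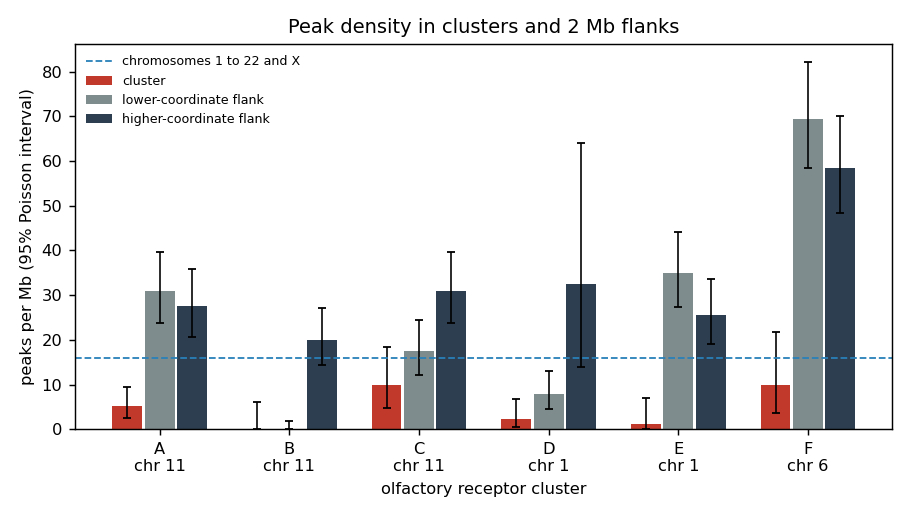
Peaks per Mb (vertical axis) in each of the 6 clusters and in the 2 Mb on its lower-coordinate and higher-coordinate side, with 95% Poisson intervals as error bars. The dashed line is the density of chromosomes 1 to 22 and X, 16.0 peaks per Mb, and all 6 cluster bars lie below it.

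Cluster E on chromosome 1 was the most depleted of the clusters that held any peak. Its single peak gave 1.25 peaks per Mb (95% Poisson interval 0.0316 to 6.96), against 30.2 in its flanks. This was 24.2-fold sparser (95% interval 4.26 to 964; exact test, adjusted p = 2.48e-08). Both sides were rich in peaks, with 70 on the lower-coordinate side and 51 on the higher-coordinate side. The ratio of the densities, 0.0413, became 0.0717 with the edges 50 kb further out and 0 with them 100 kb further in, which left the single peak outside.

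Cluster F on chromosome 6 lay in the sequence with the most peaks. Its flanks had 64.0 peaks per Mb, more than those of any other cluster, and the 6 peaks of the cluster itself gave 10.0 per Mb (3.67 to 21.8). The difference was 6.40-fold (95% interval 2.90 to 17.6; exact test, adjusted p = 3.42e-09). The 6 peaks stood at the ends of the interval, and 499 kb between them held none. The size of the difference therefore moved with the edges, and the ratio of the densities, 0.156, became 0.317 with the edges 50 kb further out, 0.0312 with them 50 kb further in and 0 with them 100 kb further in.

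Cluster A on chromosome 11, the longest of the 6 at 1.95 Mb, held 10 peaks, or 5.13 per Mb (2.46 to 9.43). Its lower-coordinate flank had 31.0 and its higher-coordinate flank 27.5 peaks per Mb. The cluster was 5.70-fold sparser than both together (95% interval 2.99 to 12.2; exact test, adjusted p = 2.08e-10).

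Cluster D near the end of the long arm of chromosome 1 held 3 peaks, or 2.31 per Mb (0.476 to 6.74). Its lower-coordinate flank was sparse as well, with 8.00 peaks per Mb (4.57 to 13.0). The 0.246 Mb from the cluster to the end of the last peak of the chromosome held 8 peaks, or 32.5 per Mb. Against both flanks the cluster was 4.63-fold sparser (95% interval 1.41 to 24.0; exact test, adjusted p = 0.00603).

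Cluster C on chromosome 11 differed least from its surroundings. It held 10 peaks in 1.00 Mb, or 10.0 per Mb (4.80 to 18.4), against 17.5 per Mb on the lower-coordinate side and 31.0 on the higher-coordinate side. It was 2.42-fold sparser than both flanks together (95% interval 1.26 to 5.22; exact test, adjusted p = 0.00603). Against the lower-coordinate flank alone the ratio of the densities was 0.571, and this difference did not pass the exact test (p = 0.153).

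Cluster B on chromosome 11 held 0 peaks in 0.600 Mb. A count of 0 allows up to 5.00 peaks per Mb by a one-sided limit, taken as 3 peaks in the interval. The two-sided 95% Poisson interval given for the other clusters reaches 6.15 here. With the 10.0 peaks per Mb of the flanks taken as fixed, the one-sided limit makes the cluster at least 2.00-fold sparser. The exact 95% interval, which covers the counting error of both, begins lower, at 1.55-fold (exact test, adjusted p = 0.00765). The comparison rests on 1 side. The lower-coordinate flank held 0 peaks in 2.00 Mb as well, and the 40 flank peaks all lay on the higher-coordinate side, at 20.0 per Mb. Cluster B was therefore the only one of the 6 that was not sparser than both of its sides. Positions of genes, of the centromere and of assembly gaps were not used here. Whether the empty flank also holds olfactory receptor genes is therefore not known.

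**Figure D2:**
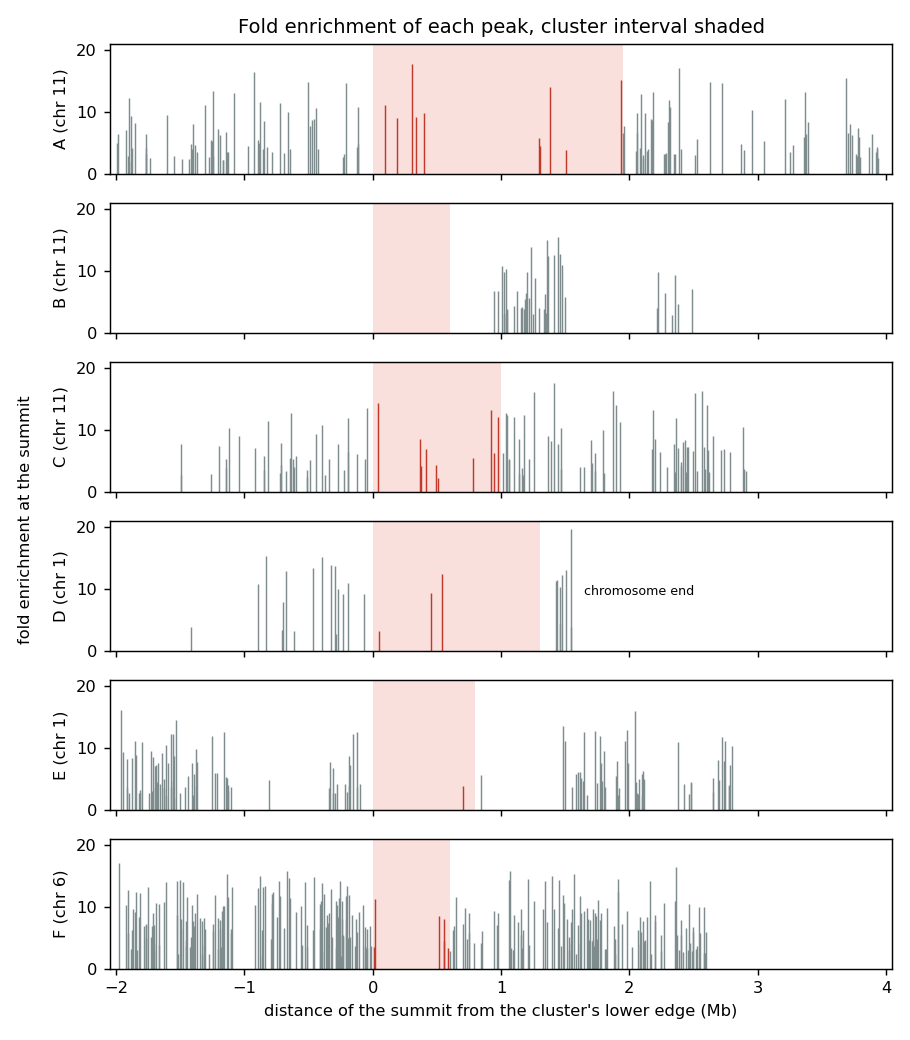
Each vertical line is a peak, placed by the distance of its summit from the lower edge of the cluster (Mb) and drawn as high as its fold enrichment at the summit. The shaded intervals hold 10, 0, 10, 3, 1 and 6 peaks from A to F (red), and the flanks of 2 Mb are in grey.

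In windows of 100 kb, the clusters were mostly empty. Of the 62 windows that lay wholly inside a cluster, 44 (71.0%) held no peak summit. Among all 30288 windows of chromosomes 1 to 22 and X the share was 45.7%, and among the 221 windows of the flanks it was 31.2%. The empty share was 100% in cluster B and 87.5% in cluster E, but in cluster C it was 4 of 10, which is below the share of all windows. The window with the most peaks, in cluster F, held 4. In clusters D and E no window held more than 1.

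Much of the sequence of the clusters lay in long peak-free stretches. Stretches of at least 100 kb between neighbouring peaks made up 88.2% of the sequence of the clusters, 46.3% of the flanks and 66.2% of chromosomes 1 to 22 and X. In cluster E they covered 99.9% and in cluster D 93.8%. The share was 84.8% in cluster A, 83.1% in cluster F and 73.9% in cluster C. The contrast with the flanks was largest in cluster F, where such stretches made up 4.41% of the flanks, and smallest in cluster B, where they made up 82.1%.

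The longest peak-free stretch of cluster A ran from 4698263 to 5596085, or 898 kb, in the middle of the cluster, and it left peaks on both sides of it inside the interval. A second stretch of 425 kb, from 5808906 to 6234252, ended just before the higher-coordinate edge. In cluster F the stretch from 29017353 to 29516212 was 499 kb long and took up 83.1% of the interval. All 6 peaks of cluster F were thus within 100 kb of an edge, against 2 of the 10 peaks of the longer cluster A. In cluster A 7 peaks lay over 300 kb from either edge, which is not possible in cluster F, as it is only 0.600 Mb long.

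In clusters D and E the longest stretch ran past an edge. That of cluster D was 888 kb long, from 247937654 to 248825729, and that of cluster E 796 kb, from 158204199 to 158999858. The single peak of cluster E, on its higher-coordinate side, was followed by another peak-free stretch of 141 kb.

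Cluster B lay wholly inside a stretch of 3.05 Mb, from 54199504 to 57249149, which reached beyond the interval on both sides. Of the 48329 stretches of chromosomes 1 to 22 and X, 28 were at least as long. Stretches across centromeres and assembly gaps were counted among them, and the longest of all was 19501 kb. In cluster C the longest was 328 kb, from 123741834 to 124069479, the shortest such value of the 6. For comparison, the median stretch on these chromosomes was 18.7 kb, and 1.64% of the stretches were 500 kb or longer. The longest ones of 4 of the 6 clusters were as long, but these are longest values set against all stretches. The flanks, which are longer than the clusters, held such stretches too. Of those that did not touch the cluster, the longest reaching into a flank was 713 kb at B, 547 kb at C, 829 kb at D and 638 kb at E. At A it was 295 kb and at F 176 kb.

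**Figure D3:**
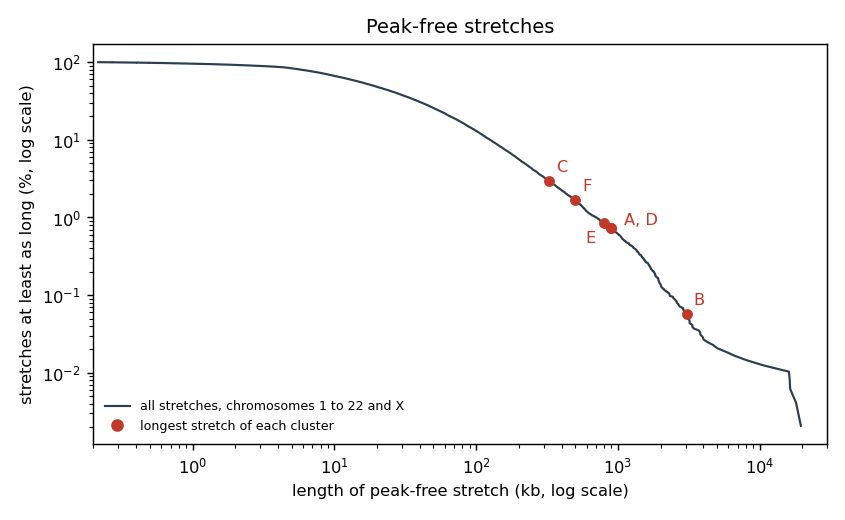
For each length of a peak-free stretch (horizontal axis, kb, log scale), the percentage of all stretches of chromosomes 1 to 22 and X that are at least as long (vertical axis, log scale). The red points mark the longest stretch of each cluster, from 328 kb in C to 3050 kb in B, where 0.0579% of the stretches are as long.

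Inside the clusters, the edges held a larger share of the peaks than of the length. The outer 100 kb on each side held 14 of the 30 peaks, or 46.7%, in 19.2% of the length. That is 11.7 peaks per Mb (95% Poisson interval 6.38 to 19.6). The 14 peaks were spread unevenly, with 6 in cluster F, 4 in C, 2 in A and 1 each in D and E. The bands from 100 to 200 kb and from 200 to 300 kb inside the edges each held 1 peak, or 0.833 per Mb (0.0211 to 4.64). The remaining interior, over 300 kb from either edge, held 14 peaks at 5.28 per Mb (2.89 to 8.86), all of them in clusters A, C and D. Clusters B and F, each 0.600 Mb long, have no such interior. These differences within the clusters were not tested.

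Outside the edges, the intervals of all bands overlapped. The first 250 kb had 32.0 peaks per Mb (26.0 to 39.1), and the following bands of 250 kb up to 2 Mb had between 26.5 and 34.5. The edges are round numbers, and 4 peaks lay within 20 kb inside an edge and 6 within 20 kb outside. Just inside the higher-coordinate edge of cluster A, the peak at 6234253 to 6235446 had a fold enrichment of 15.2, and just outside it the peak at 6251207 to 6251442 had 6.56. Just inside the higher-coordinate edge of cluster F, the peak at 29589380 to 29589714 had a fold enrichment of 3.28, and the one at 29602967 to 29603195, just outside, had 2.87.

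**Figure D4:**
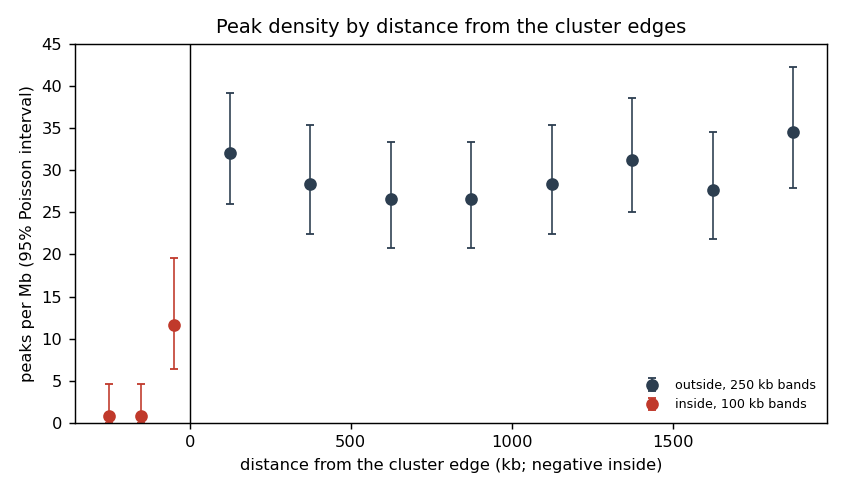
Peaks per Mb (vertical axis, with 95% Poisson intervals) by distance from the cluster edges (kb), summed over the edges of the 6 clusters. Red points are bands of 100 kb inside, where the outermost has 11.7 and the other 2 have 0.833 peaks per Mb, and dark points are bands of 250 kb outside, which lie between 26.5 and 34.5.

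The few peaks of the clusters had fold enrichments in the range of those around them. Fold enrichment compares the fragments stacked at the summit of a peak with the local background. It had a median of 8.25 over the 30 peaks (95% order-statistic interval 4.59 to 9.84), 6.56 in the flanks (6.28 to 7.10) and 5.60 over the whole list. It was above the median of the list in 19 of the 30 peaks (a share of 63.3%, with a 95% Wilson interval of 45.5% to 78.1%), and for the 655 flank peaks the share was 58.5% (54.7% to 62.2%). The difference between these shares did not pass Fisher's exact test (two-sided p = 0.706). The higher median rested on cluster A, without which the medians were 6.63 in the clusters and 6.96 in the flanks.

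Peak width showed no difference that passed the test either. The median was 561.5 bp in the clusters (95% order-statistic interval 407 to 750) and 651 bp in the flanks (607 to 722), with 590 bp over the whole list. Of the 30 peaks, 12 (95% Wilson interval 24.6% to 57.7%) were wider than the median of the list, against 55.9% of the flank peaks (52.1% to 59.6%; two-sided Fisher's exact test, p = 0.0941). Peaks of at least 1000 bp numbered 2 of 30, or 6.67% (1.85% to 21.3%), against 24.3% in the flanks (21.1% to 27.7%). Without cluster F, whose flanks hold wide peaks, the medians were 568.5 and 577 bp.

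The fragments at the summit (the summit pileup) were worked out from the deposited fold and p-value of each peak. They had a median of 61 over the 4 libraries in the clusters (95% order-statistic interval 37 to 71) and of 78 in the flanks (71 to 87). The direction turned without cluster F, where the medians were 63 and 59. A pileup of 61 is an average of 15.2 fragments per library, and counting error alone gives it a standard deviation of 7.81 fragments, or 12.8%. The local background was at the genome-wide level of 6.32 fragments in 19 of the 30 peaks (63.3%), against 24.9% of the flank peaks and 33.9% of the whole list. A level this low means that the sequence around these peaks gave no more fragments than the genome on average, and the fold enrichment of such peaks is set by the pileup alone.

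Peaks with the same pileup over this background carry identical values, and 3 pairs of the cluster peaks did. The peak of cluster E and a peak of cluster A both had 27 fragments and a fold enrichment of 3.83. A peak of cluster C and one of cluster F both had 61 fragments and a fold enrichment of 8.47, and a peak of cluster D and one of cluster F both had 23 fragments and 3.28. Such ties were common in the whole list, where 549, 81 and 593 peaks carried these respective values.

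The median distance to the nearest peak was longer for the cluster peaks than for the flank peaks. This distance grows as peaks become sparser, so it is not a result separate from the low density above. Whether the spacing differed from that of peaks placed at random at the same density was not tested. The distance to the nearest neighbouring peak had a median of 28.4 kb in the clusters (95% order-statistic interval 14.6 to 79.0) and of 6.96 kb in the flanks (6.33 to 7.93), against 9.32 kb over the list. In 11 of the 30 (36.7%, 95% Wilson interval 21.9% to 54.5%) the nearest peak was more than 50 kb away, which held for 3.51% of the flank peaks (2.35% to 5.21%) and 11.6% of the list. All 3 peaks of cluster D and the peak of cluster E were among these 11, with 5 of cluster A and 2 of cluster C, while in cluster F there was none.

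**Figure D5:**
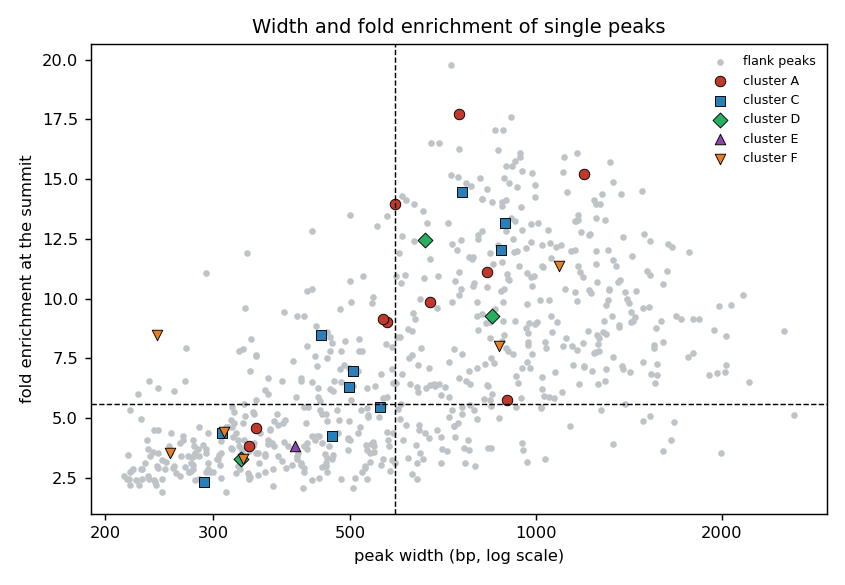
Width (horizontal axis, bp, log scale) and fold enrichment at the summit (vertical axis) of the 30 cluster peaks (coloured by cluster) and the 655 flank peaks (grey). Dashed lines are the medians of the whole list, 590 bp and 5.60, and 19 of the cluster peaks lie above the second.

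In cluster A, 5 of the 10 peaks lay in the lower-coordinate part, before the stretch of 898 kb. The first, at 4393178 to 4394010, was 833 bp wide with a fold enrichment of 11.1. The second, at 4492949 to 4493521, had a fold enrichment of 9.02. The third, at 4607791 to 4608540, had the highest fold enrichment of all 30, 17.7, with 354 fragments at the summit, and stood at percentile 99.7 of the list by this measure. The fourth and the fifth, at 4637013 to 4637576 and 4697591 to 4698262, had fold enrichments of 9.16 and 9.84. All 5 were above the median fold enrichment of the list.

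After the stretch, a pair of peaks stood 3.40 kb apart, at 5596086 to 5596983 and 5600388 to 5600739, with fold enrichments of 5.74 and 4.59. They were followed by a peak of 590 bp at 5684631 to 5685220 with a fold enrichment of 14.0, and by a weak one of 343 bp at 5808563 to 5808905 with 3.83. The last peak, at 6234253 to 6235446, was the widest of all 30 with 1194 bp. It also had the highest −log10 q-value (the adjusted significance given by the peak caller), 578 (percentile 99.5 of the list), and the highest pileup, 739 fragments over a local background of 47.6. Cluster A thus held both the peak with the highest fold enrichment and the one with the highest pileup of the 6 clusters.

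In cluster C, the 3 peaks with the highest fold enrichment stood near the edges. The peak at 123741075 to 123741833, 41.6 kb inside the lower edge, had a fold enrichment of 14.4 and 181 fragments. Near the higher edge, the peaks at 124622453 to 124623341 and 124673394 to 124674269 had fold enrichments of 13.2 and 12.1, and one between them, at 124644494 to 124644990, had 6.29. These 4 were within 100 kb of an edge, and the one with 6.29 was lower than 2 of the peaks further inside.

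The other 6 peaks of cluster C, from 369.6 to 781.9 kb inside the lower edge, had fold enrichments between 2.32 and 8.47, and all 6 had the genome-wide background. The highest of them was at 124069480 to 124069927, and its neighbours at 124076071 to 124076537 and 124115020 to 124115524 had 4.24 and 6.97. The peak at 124195070 to 124195379 had 4.37 and the one at 124481581 to 124482139 had 5.47. The weakest of all 30 was at 124210006 to 124210295, with 16 fragments at the summit and a −log10 q-value of 1.54, and it was the single one of the 30 below a −log10 q-value of 5.

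In cluster D, the peak nearest the lower edge, at 247448202 to 247448533, was weak, with a fold enrichment of 3.28 and 23 fragments. The other two stood 79.0 kb apart. The one at 247857138 to 247857984 was 847 bp wide with a fold enrichment of 9.29, and the one at 247936994 to 247937653 had 12.4 with 90 fragments. All 3 had the genome-wide background. The peak of cluster E, at 158999859 to 159000265, was 407 bp wide with a fold enrichment of 3.83 and a −log10 q-value of 7.50, below the lower quartile of the list for the last (8.15).

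In cluster F, 2 peaks stood at the lower edge, at 29011403 to 29011657 with a fold enrichment of 3.55 and at 29016264 to 29017352 with 11.4. The second was 1089 bp wide and held 163 fragments. After the bare interior came the narrowest peak of the 30, 243 bp at 29516213 to 29516455, which nevertheless had a fold enrichment of 8.47. A pair 0.446 kb apart, at 29552472 to 29552783 and 29553230 to 29554098, had fold enrichments of 4.43 and 8.03, and the last peak, at 29589380 to 29589714, had 3.28. No peak of cluster F lay more than 100 kb from an edge.

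The longest stretches of clusters B, D and E were bounded by peaks outside the intervals. That of cluster B began after a peak at 54199273 to 54199503 with a fold enrichment of 3.14 and ended at one at 57249150 to 57249899 with 6.70. The stretch of cluster D ended at a peak at 248825730 to 248826755 with a fold enrichment of 11.3, and that of cluster E began after one at 158203758 to 158204198 with 4.24. Which genes these peaks lie in was not examined here.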

How the data were processed

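ATAC-seq was measured in 4 libraries. According to the methods and the labels, the authors removed adapters with Trimmomatic and aligned with Bowtie2 to GRCh38.p10. They used Picard for duplicates and called peaks with MACS2. The labels name the deposited list as peaks of the merged samples, while the methods describe consensus peaks joined from calls on single samples. The methods also took out peaks in ENCODE blacklisted regions. Whether this was done for the deposited list is not known. The deposited list gives for each peak a score, a linear ratio of the summit to its background (fold enrichment), and the −log10 p-value and −log10 q-value. Columns of single samples number 0, so depth per library is unknown.

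Positions were converted to 1-based coordinates. A peak was counted where its summit lay. Densities were compared by an exact conditional binomial test, and widths and fold enrichments by Fisher's exact test against the medians of the list (Python 3.11.15, numpy 2.4.6, pandas 2.3.3, scipy 1.17.1, matplotlib 3.10.9). Pileups were recovered under a Poisson distribution with a pseudocount of 1 (misfit at most 0.001), in all 30 peaks of the clusters. The search was tested on simulated data and returned 100.0% of 1989 pileups. A background within 0.1% of the lowest was taken as genome-wide.

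The 6 intervals are fixed positions, and no peak value was used to set them. They and the tests were nevertheless chosen with earlier results of these data known. Every peak of a cluster with 10 peaks or fewer was named, which took in all 30. Alternatives were a minimum −log10 q-value of 5, any overlap, flanks of 1 Mb or of a single side, leaving out each cluster, other stretch lengths and moved edges. The planned counts of peaks at gene starts were not run, because an annotation of GRCh38 was not used here.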

Additional observations from a re-analysis of the deposited data

How the results depend on the processing

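The density of the clusters relative to the flanks, 0.163, kept its direction and stayed past the threshold under all alternatives run, from 0.108 with the edges moved inwards by 100 kb to 0.223 with the edges moved outwards by 50 kb (both chosen after seeing the data), and from 0.125 to 0.194 when each cluster was left out in turn. For single clusters, 46 of 47 alternatives kept the direction and the side of the threshold (the size moved with the edges in clusters E and F), and the exception was cluster C against its lower-coordinate flank (ratio 0.571, p = 0.153, exact binomial test). Cluster B gave no ratio against its lower-coordinate flank, where both counts were 0. The difference in peak-free sequence, 41.8 percentage points, ranged from 33.2 to 48.4 without single clusters and from 33.3 with stretches of at least 50 kb to 48.8 with the higher-coordinate flank only. The difference in median fold enrichment, 1.69, turned to -0.33 without cluster A and reached 2.75 without cluster F. The difference in median width, -89.5 bp, ranged from -206 to -8.5 bp without single clusters, and passed the test in no setting. The difference in median pileup, -17.0 fragments, ranged from -33.5 to 4 and turned positive without cluster F. The cause was not tested. Leaving out single libraries was not run, because the list pools them, and for the same reason the pooled depth sets the lower limit, with 16 fragments at the weakest peak. No paired analysis was possible because every value of the list belongs to the 4 libraries merged. Peaks at gene starts were not counted.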
